A study of Mus musculus with 120 samples.

Results

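The consomic strain B6-mtMSM carries the mitochondrial DNA (mtDNA) of MSM on the nuclear background of C57BL/6J (B6), and its liver was compared here with the liver of B6. Members were taken by the strain label. They are the 4 arrays of 2 B6-mtMSM males, set against the 4 arrays of 2 B6 males, of 120 arrays from 60 males of 30 strains in all. A second comparison set the same males against 108 arrays of 54 males of the other 27 consomic strains, each of which has 1 chromosome from MSM, in whole or in its centromeric or telomeric piece, in an otherwise B6 genome; their labels name no MSM mtDNA. MSM itself, the inbred strain derived from wild mice that gave the mtDNA, served as a further check with 4 arrays of 2 males. All were 10-week-old males, killed after 4 h of fasting, and transcripts were measured in whole liver on Affymetrix mouse genome arrays. How the B6-mtMSM strain was bred, and for how many generations, is not given in the sources used here.

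Mitochondrial DNA is inherited from the mother and encodes a small set of subunits of the respiratory chain, together with the ribosomal and transfer RNAs needed to translate them. All other mitochondrial proteins, most subunits of the respiratory chain among them, are encoded in the nucleus and imported. A strain with foreign mtDNA therefore combines respiratory chain subunits of 2 origins. In liver, mitochondria carry out fatty acid oxidation, ketogenesis and the first steps of the urea cycle.

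The deposited values were read as log2, since their range is that of a log scale while the base is not given in the sources used here. They ran from 6.34 to 14.82 and vary very little between arrays: over 11949 tested genes the SD left among males within strains (the residual SD) had a median of 5.95e-05. It ran from 1.02e-05 at the 10th percentile of genes to 0.000806 at the 90th, so differences are not read as fold changes and are not compared in size between genes on the log2 scale. Each value is therefore also given as a scaled value, the male's mean minus the mean of the other consomic strains, divided by the residual SD of that gene. Strains carrying the gene's own chromosome from MSM were left out of that mean. The 2 arrays of each B6-mtMSM male correlated best with each other (r = 0.4 and r = 0.532 across genes, which are not independent replicates). Those of B6 male 2 also did (r = 0.587), while those of B6 male 1 had r = 0.215 with each other and correlated best with arrays of other strains. With 2 males against 2, an exact permutation test of a single gene cannot give a p below 0.333, so all tests below come from a limma fit over all 60 males with Benjamini-Hochberg adjustment, and calls were made where the adjusted p lay under 0.05.

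The nuclear genome was checked first. Of the tested genes, 88 on 18 chromosomes separated MSM from the strains without the gene's own MSM chromosome by more than 10 residual SDs, with both MSM males beyond all males of those strains. On a scale on which those strains stand at 0 and MSM at 1, B6-mtMSM stood between −0.266 (Mgst2, chromosome 3) and 0.142 (Hnrnpl, chromosome 7), with a median of −0.00332. The chromosome medians ran between −0.0525 and 0.0405, and no gene of the 88 (0) had a position above 0.5. With a distance of 5 residual SDs, 628 genes on 20 chromosomes qualified, the highest position was 0.425 (Map3k5, chromosome 10), and again 0 lay above 0.5. At the genes that differ most between the parental strains, B6-mtMSM thus stood at the level of the strains without the MSM allele, as its label says. Chromosomes 14 and X had no gene at the wider distance, and short MSM segments without such a gene are not covered.

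**Figure D1:**
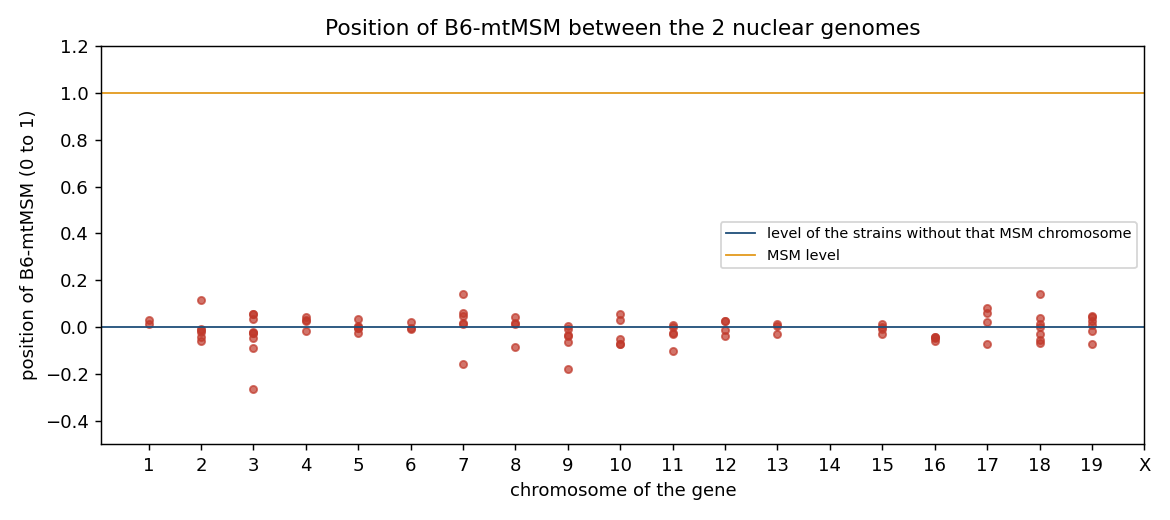
Position of the B6-mtMSM strain mean (vertical axis, 0 = strains without that MSM chromosome, blue line; 1 = MSM, orange line) for each of 88 genes that separate the parental strains by more than 10 residual SDs, by chromosome (horizontal axis). Points lie between −0.266 and 0.142, far from the MSM line.

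The single probe set on the array annotated to mtDNA, that of ND5, separated the males by their mtDNA. ND5 is a core subunit of complex I, in the proton-pumping membrane arm, and its probe set was among the brightest on the array, with a mean of 13.65 on the log2 scale. The ND5 level was 13.64629 and 13.64626 in the B6-mtMSM males, against 13.64529 and 13.64560 in the B6 males (log2). The B6-mtMSM males had scaled values of 5.99 and 5.81, against −2.07 and 0.42 in the B6 males. In the 54 males of the other consomic strains the scaled values ran between −2.02 and 1.91, with a median of 0.017. The MSM males, which carry the same mtDNA on another nuclear genome, had 5.25 and 4.70. The 4 males with MSM mtDNA were thus ranks 1 to 4 of 60, and the 8 arrays of these males were ranks 1 to 8 of 120, the lowest of them at 4.22 and the next array, of another strain, at 2.53.

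In the fit, ND5 was higher in B6-mtMSM than in B6 by 0.000834 ± 0.000123 on the log2 scale (SE, n = 2 males each; limma adjusted p = 0.00086). That is 6.72 residual SDs, with a 95% interval of 4.7 to 8.74. Against the other consomic strains the difference was 5.90 residual SDs (limma adjusted p = 1.61e-05). Between B6-mtMSM and MSM it was 0.93 residual SDs, with an interval of −1.09 to 2.95 (limma adjusted p = 0.524). The call against B6 was lost without B6 male 1 (adjusted p = 0.173), while that against the other consomic strains held without either B6-mtMSM male (adjusted p = 0.00975 without male 1 and 0.00971 without male 2). The probes of this set were not compared with the MSM mtDNA sequence here, so more ND5 transcript and better pairing of the probes with one mtDNA type cannot be told apart.

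**Figure D2:**
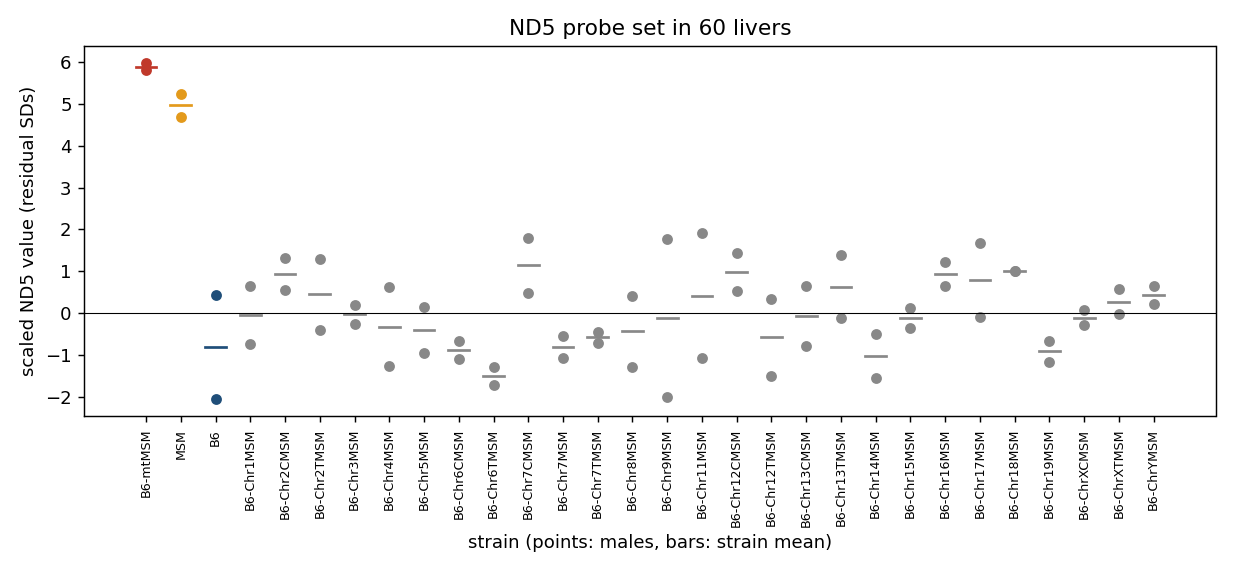
Scaled value of the ND5 probe set (vertical axis, residual SDs, 0 = mean of the other consomic strains) in each of 60 males (points) by strain (horizontal axis), with the strain mean as a bar. The B6-mtMSM and MSM males lie between 4.70 and 5.99, and every other male lies at or below 1.91.

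Across the tested genes, limma called 16 higher (0.134%) and 14 lower (0.117%) in B6-mtMSM than in B6, and 1235 had an unadjusted p below 0.05. In each of the 30 called genes both B6-mtMSM males lay beyond both B6 males, and the smallest called difference was 4.37 residual SDs. Against the other consomic strains 8 genes were higher (0.067%) and 16 lower (0.134%). Of these, 7 higher (0.0586%) and 11 lower (0.0921%) were called in the same direction against both, and the comparisons share the B6-mtMSM males. For scale, the other 27 consomic strains had between 0 and 95 genes called against B6 outside the chromosome they carry from MSM, with a median of 3. B6-mtMSM had 29 without ND5, and 4 strains had more. Leaving out a male reduced the calls to at most 2 higher and 4 lower: without B6 male 1, B6 male 2, B6-mtMSM male 1 and B6-mtMSM male 2 in turn, 0, 2, 1 and 2 genes were higher than in B6 and 1, 4, 2 and 1 lower. Against the other consomic strains the counts were 7 higher and 15 lower without either B6 male, 2 and 3 without B6-mtMSM male 1, and 1 and 2 without B6-mtMSM male 2.

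**Figure D3:**
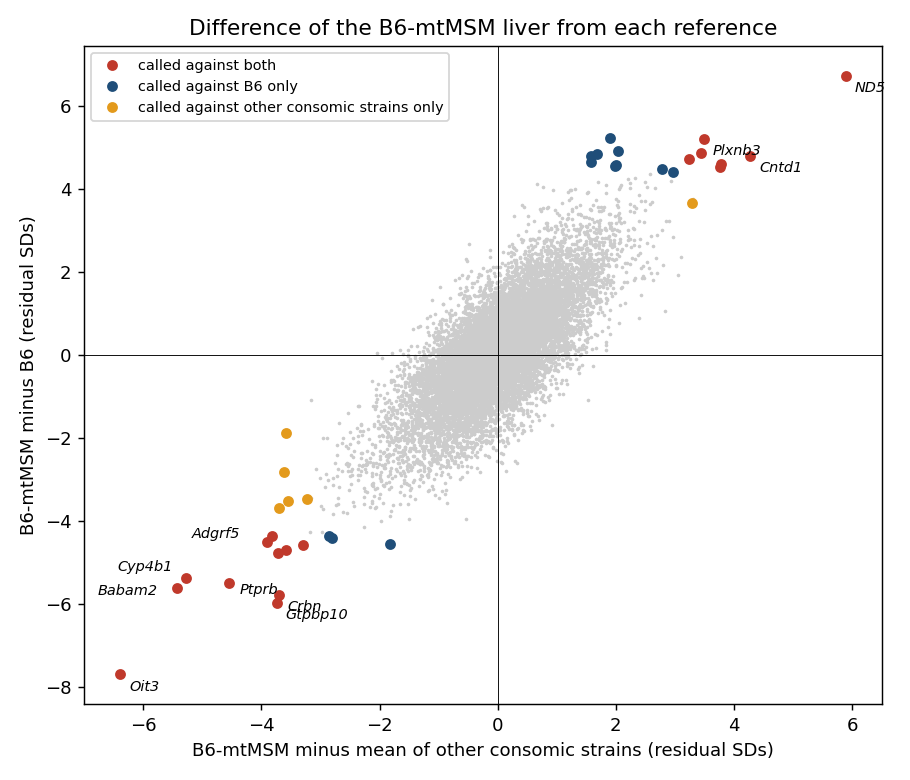
Difference of B6-mtMSM from B6 (vertical axis) against its difference from the mean of the other consomic strains (horizontal axis), both in residual SDs, for 11949 genes (grey points). Coloured points are genes called against both (18), against B6 only (12) or against the other consomic strains only (6); Oit3 and ND5 lie at the ends. Both axes share the B6-mtMSM males, so the slope of the cloud is no result.

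The gene with the lowest p against B6 was Oit3, which encodes a secreted zona pellucida-domain protein of the liver sinusoidal endothelium. Its scaled values were −6.70 and −6.08 in the B6-mtMSM males, against 0.99 and 1.65 in the B6 males, with −2.83 to 3.28 in the 54 other consomic males and 2.16 and 1.85 in the MSM males. Both B6-mtMSM males thus lay far below all 56 other males on the B6 background, and the MSM males did not share the low level. The difference from B6 was −0.000429 ± 5.52e-05 on the log2 scale (SE, n = 2; limma adjusted p = 0.00012), and the call held in each of the 4 fits lacking a male (adjusted p between 0.00409 and 0.009). It also passed against the other consomic strains (adjusted p = 5.81e-06, and at most 0.00911 without either B6-mtMSM male).

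Further genes known from endothelium fell as well. Ptprb, the vascular endothelial tyrosine phosphatase that restrains TIE2 signalling, had scaled values of −4.61 and −4.50 in the B6-mtMSM males, against 2.21 and −0.29 in the B6 males (limma adjusted p = 0.00876 against B6 and 0.00104 against the other consomic strains). Adgrf5, an adhesion G protein-coupled receptor of microvascular endothelium, had −3.99 and −3.81 in B6-mtMSM, against 0.94 and 0.28 in B6 (limma adjusted p = 0.0389). Adgrl4, an endothelial adhesion receptor formerly named Eltd1, had −4.35 and −2.83, against 1.83 and 0.39 in B6 (limma adjusted p = 0.0366). The groups did not overlap in any of these, and in Ptprb and Adgrf5 both B6-mtMSM males lay below all 56 other males. Aqp1, a water channel of vascular endothelium and bile duct cells, had −4.60 and −3.04 in B6-mtMSM, against 1.17 and −0.06 in B6 (limma adjusted p = 0.0479). A second probe set stood on the same side for each gene that has one: −6.16 residual SDs against B6 for Adgrl4, −1.76 for Adgrf5, and −1.78 and −1.37 for the other probe sets of Ptprb. Clec14a, an endothelial lectin-like receptor, and the ETS transcription factor Elk3 were called lower only against the other consomic strains (limma adjusted p = 0.0147 and 0.012). Against those strains the other probe set of Clec14a stood at −2.06 residual SDs. The other probe sets of Elk3 stood at 0.29, −1.69 and 0.27, the first of them of similar brightness to the called one, so Elk3 is uncertain. These 6 genes were grouped after their values were seen. Without B6 male 1 only Oit3 of these genes passed against B6 (adjusted p from 0.663 to 0.719 for Ptprb, Adgrf5, Adgrl4 and Aqp1), and without B6 male 2 Ptprb did as well (0.0103). Without either B6-mtMSM male none of the calls of Ptprb, Adgrf5, Adgrl4 or Aqp1 held (adjusted p from 0.119 to 0.351 against B6 and from 0.104 to 0.654 against the other consomic strains).

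A list of endothelial markers, which shares only Oit3 with the called genes, was mostly on the low side. This list was chosen with earlier results of these data known, so it is no independent check. Of its 12 tested members, 11 had a negative difference from B6. In 10 both B6-mtMSM males lay below both B6 males, where 22.2% of all tested genes did so, and in 1, the cadherin Cdh5, both lay above (26.6% of all tested genes). Only Oit3 was called. The median difference was −1.99 residual SDs against B6 and −1.64 against the other consomic strains, where the medians of all tested genes were 0.098 and 0.0048. Clec4g, a lectin of sinusoidal endothelium, had scaled values of −3.06 and −2.39 in B6-mtMSM, against 0.37 and 0.015 in B6, and the scavenger receptor Stab2 had −1.81 and −2.64, against 0.74 and 0.46. The median scaled value of the list was −1.70 and −1.55 in the B6-mtMSM males, ranks 1 and 2 from the bottom of 60, against 0.48 and 0.074 in the B6 males. In whole liver, fewer cells of a type and less RNA per cell cannot be told apart. For markers of neighbouring cells, against B6 the median was −0.0063 residual SDs over 10 hepatocyte markers, 0.034 over 13 stellate cell and fibroblast markers and 0.56 over 15 Kupffer cell and macrophage markers. Against the other consomic strains these were −0.0068, −0.66 and −0.26, and their part in the result was not tested. By the mean of its male medians, B6-mtMSM ranked 1 from the bottom of 29 strains for the endothelial list (−1.62). It held the same rank for the stellate cell and fibroblast list (−0.67) and for the complex II list (−0.75), so a lowest rank was not particular to endothelium. For complex I assembly factors it ranked 2 from the bottom (−0.59). In the stellate cell and fibroblast list 11 of 13 members were negative against the other consomic strains, and the B6-mtMSM male medians were −0.12 and −1.22. Quantile normalization of the deposited values moved the endothelial median to 0.467 while moving that of all tested genes to 2.16, turned Oit3, Adgrf5 and Adgrl4 to the positive side and left 3 of 12 markers with both males below B6. With the first array of each male alone the median was −1.21, and both males lay below both B6 males in 5.

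**Figure D4:**
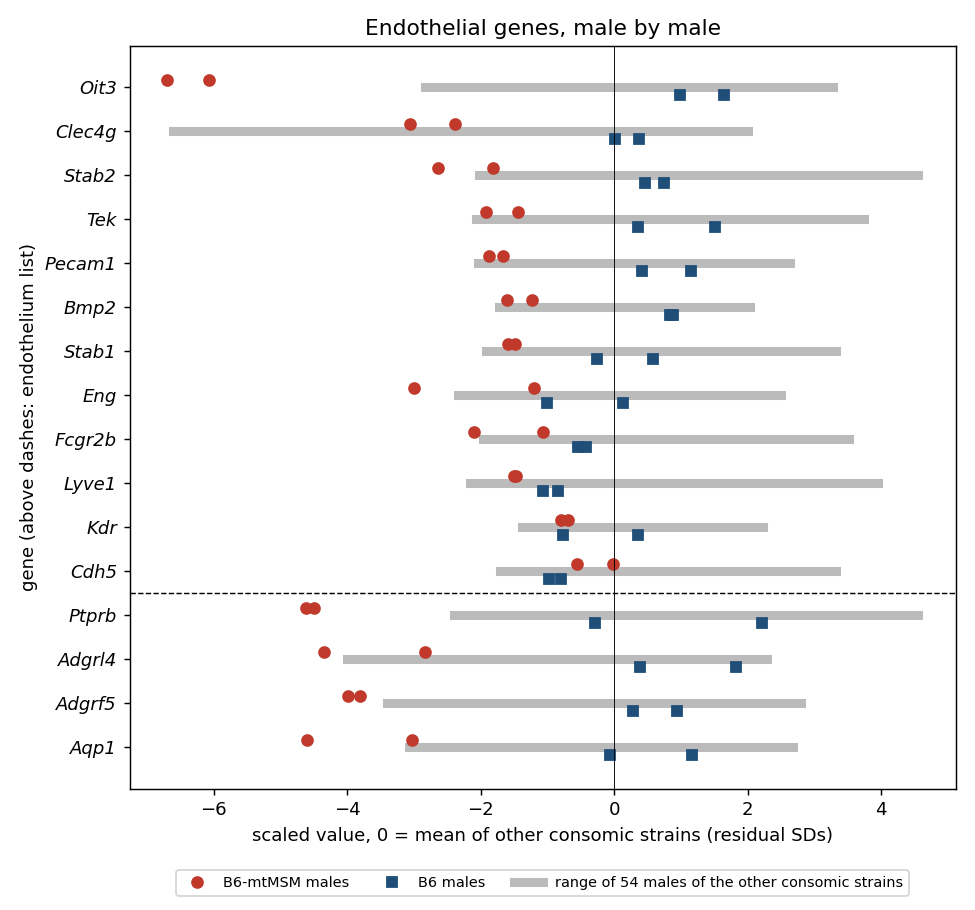
Scaled values (horizontal axis, residual SDs, 0 = mean of the other consomic strains) of 12 endothelial markers (above the dashes) and of 4 further genes called lower (below) in the B6-mtMSM males (red circles), the B6 males (blue squares) and the range of 54 males of the other consomic strains (grey bars). The B6-mtMSM males lie left of the B6 males in all rows except Kdr, where they overlap, and Cdh5. Quantile normalization turns the median of the 12 to 0.467 and that of all tested genes to 2.16.

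Promoter sequence was at hand for 3 of the 5 called endothelial genes and is shown so that their starts can be set side by side. Each run gives the 250 bases before the annotated start, 5′ to 3′, from RefSeq on GRCm38.p6, with each GGAA or its reverse complement TTCC in capitals, the core that ETS family factors bind.
Aqp1 (chr6:55336049-55336298, plus strand): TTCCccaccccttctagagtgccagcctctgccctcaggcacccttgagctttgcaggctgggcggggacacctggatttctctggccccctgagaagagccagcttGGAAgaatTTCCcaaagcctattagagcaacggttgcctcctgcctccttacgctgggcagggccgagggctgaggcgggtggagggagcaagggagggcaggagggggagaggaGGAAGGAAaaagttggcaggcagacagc
Adgrf5 (chr17:43360181-43360430, plus strand): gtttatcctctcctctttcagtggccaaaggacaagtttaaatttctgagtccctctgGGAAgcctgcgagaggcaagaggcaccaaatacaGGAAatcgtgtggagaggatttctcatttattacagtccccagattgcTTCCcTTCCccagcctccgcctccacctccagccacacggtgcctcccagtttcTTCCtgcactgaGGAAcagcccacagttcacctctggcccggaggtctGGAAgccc
Adgrl4 (chr3:151437632-151437881, plus strand): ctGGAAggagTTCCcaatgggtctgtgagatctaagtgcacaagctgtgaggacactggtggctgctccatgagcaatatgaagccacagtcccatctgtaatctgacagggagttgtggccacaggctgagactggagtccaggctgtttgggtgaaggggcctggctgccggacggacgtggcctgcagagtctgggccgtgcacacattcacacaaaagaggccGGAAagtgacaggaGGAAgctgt
GGAA occurred 5 times on either strand before Aqp1, 7 times before Adgrf5 and 4 times before Adgrl4, where 93.4% of 32851 promoters of this length held it at least once and the median was 3. AGGAAG, an extended form that overlaps it, occurred once in each, and in 29.5% of all promoters. AGATAA, a core bound by another factor family, occurred in none of them (0) and in 9.99% of all. Adgrf5 has 2 annotated starts, and the first in the table is shown.

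Among the other genes called lower against both, Gtpbp10 is the one with a known mitochondrial role: it encodes a GTPase that takes part in assembling the mitochondrial ribosome. Its scaled values were −3.71 and −3.78 in the B6-mtMSM males, against 2.94 and 1.54 in the B6 males and −2.67 to 3.43 in the other consomic males (difference from B6 −9.87e-05 ± 1.67e-05 log2, SE, n = 2; limma adjusted p = 0.006). Both B6-mtMSM males lay below all 56 others, and a second probe set stood at −4.43 residual SDs against B6. The call held only without B6 male 2 (adjusted p = 0.024) among the 4 fits with a male left out, and against the other consomic strains it was lost without either B6-mtMSM male (adjusted p = 0.363 and 0.429). Quantile normalization turned the difference from B6 to 0.000467, not called, while moving the median of all tested genes to 2.16 residual SDs.

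The remaining lower genes have roles outside mitochondria. Cyp4b1, a microsomal cytochrome P450, had −5.85 and −4.70 in the B6-mtMSM males, against −0.38 and 0.60 in the B6 males (limma adjusted p = 0.0109). Crbn, the substrate receptor of a ubiquitin ligase and the target of thalidomide, had −1.91 and −5.52, against 2.42 and 1.73 in B6 (limma adjusted p = 0.006), so its B6-mtMSM males differed from each other by more than those of the other genes named here as lower. Its call held without B6-mtMSM male 1 (adjusted p = 0.00128) or B6 male 2 (0.049) and not without B6-mtMSM male 2 (0.295) or B6 male 1 (0.236). Babam2, a scaffold of BRCA1-containing deubiquitinating complexes, had −5.01 and −5.85, against −0.03 and 0.44 (limma adjusted p = 0.00876). The lowest male of the other consomic strains stood at −5.51 in Babam2, and a second probe set of similar brightness stood at 0.35 residual SDs. Papola, a nuclear poly(A) polymerase, stood at −4.79 residual SDs against B6 (limma adjusted p = 0.0279), and Msl3, a subunit of a chromatin complex, stood at −4.6 (limma adjusted p = 0.0385). In Papola the other probe sets ran from −2.61 to 0.73. Cyp4b1, Babam2, Papola and Msl3 lost the call against B6 in each of the 4 fits lacking a male (adjusted p from 0.0572 to 0.722). Quantile normalization turned Crbn, Babam2 and Msl3 to the positive side, none called. After it 74.3% of all tested genes stood on that side, against 53.6% in the deposited values.

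Of the genes called higher against both, Cxcr2, the chemokine receptor of neutrophils, had scaled values of 3.73 and 3.84 in the B6-mtMSM males, against −0.98 and −0.65 in the B6 males (difference 0.000119 ± 2.59e-05 log2, SE, n = 2; limma adjusted p = 0.0385). The MSM males had 3.95 and 2.88, so that here too the 4 males with MSM mtDNA lay above the other 56. The MSM males also differ in the whole nuclear genome, and both lay above all B6-background males in 1080 tested genes, so for a nuclear gene the mtDNA and the nuclear genome of MSM cannot be told apart. The same held for Plxnb3, a semaphorin receptor, with 2.71 and 4.28 in B6-mtMSM, 3.70 and 3.84 in MSM and −2.67 and −0.74 in B6 (limma adjusted p = 0.0177 for B6-mtMSM minus B6). It held as well for Pigz, a mannosyltransferase of glycosylphosphatidylinositol anchors, with 3.42 and 4.12 in B6-mtMSM, 4.38 and 4.09 in MSM and −1.08 and −0.43 in B6 (limma adjusted p = 0.0389). Other probe sets of Plxnb3 (0.78 residual SDs) and Pigz (0.29 and −2.6) did not follow.

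Cntd1, a cyclin-related gene of meiotic crossing over, had 3.30 and 5.25 in B6-mtMSM, against 0.11 and −1.16 in B6, while the MSM males had −0.18 and 0.18 (limma adjusted p = 0.0279 for B6-mtMSM minus B6). Its other probe sets stood at 1.82 and 2.71 residual SDs against B6. Smarcc2, a core subunit of SWI/SNF chromatin remodelling complexes, was higher by 4.87 residual SDs (limma adjusted p = 0.0279), while the MSM males lay on the other side (−3.42 and −3.86). Samd4b, an RNA-binding translational repressor, was higher by 4.72 (limma adjusted p = 0.0366). The probe sets of Cntd1 (suffix x) and of Plxnb3 and Crbn (suffix s) can share target sequence with other transcripts, so these genes are uncertain. Among the genes named below, the same limit applies to Snapc2, Map1lc3a and Irf3 (suffix x). It also applies to Hdgf, Trmt10a, Gfm1, Acaa2, Lims1 and Myct1 (suffix s). Of the 6 nuclear genes called higher against both, Cxcr2, Pigz, Cntd1, Smarcc2 and Samd4b lost the call against B6 whichever male was left out. The call of Plxnb3 held only without B6 male 2. Against the other consomic strains, the calls were lost without either B6-mtMSM male, except that of Cntd1 without B6-mtMSM male 1.

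A further 12 genes were called against B6 only. In 8 of them B6 lay further from the other consomic strains than B6-mtMSM did, and in 4 (Tnrc18, Ptprf, Rpe and Eif3e) B6-mtMSM lay further. In Tnrc18 and Rpe both B6-mtMSM males lay outside all 56 other males. Turned to the direction of the call, the medians over the 12 genes were 2 residual SDs for B6-mtMSM and −2.65 for B6, each minus the other consomic strains. Higher were the transcription factor Nfic, the growth factor Hdgf, the splicing factor Hnrnpl, the kinase Map2k2, Snapc2, Ptprf and Tnrc18, together with Cp and Fkbp8. The other probe set of Hnrnpl stood at −0.2 residual SDs against B6, and those of Nfic at 2.06, −1.43, 2.62 and −0.16. Those of Hdgf, Map2k2, Snapc2, Ptprf and Tnrc18 stood on the positive side. Cp, which encodes the plasma copper protein ceruloplasmin, had 1.58 and 1.77 in B6-mtMSM, against −3.09 and −3.23 in B6, but its 7 other probe sets ran from −1.6 to 0.77 residual SDs. Fkbp8, an outer-membrane mitophagy receptor, had 1.56 and 2.46, against −3.08 and −2.06 in B6 (limma adjusted p = 0.0385 against B6 and 0.405 against the other consomic strains). Lower were Trappc12, Rpe, an enzyme of the pentose phosphate pathway, and Eif3e. The other probe sets of Eif3e stood on the positive side (0.9, 0.92 and 1.17 residual SDs against B6), and those of Trappc12 at −0.13, 0.62 and −0.29. Over all genes called against B6, 21 had 46 other probe sets, of which 31 stood in the direction of the call. Of the 4 remaining genes called only against the other consomic strains, Map1lc3a, an autophagosome protein, was higher. Spcs1, Trmt10a and the interferon regulatory factor Irf3 were lower. Other probe sets of Irf3 stood at −0.14, −0.13 and −0.91 residual SDs against the other consomic strains. Against B6 they stood at 1.41, 0.36 and −1.39, so Irf3 is uncertain.

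The nuclear partners of the mtDNA-encoded subunits were described by lists. Of 32 tested nuclear subunits of complex I, 0 were called by limma, and 4 were higher and 2 lower at an unadjusted p below 0.05 (5.9% and 4.44% of all tested genes). Both B6-mtMSM males lay above both B6 males in 10 and below them in 4 (26.6% and 22.2% of all tested genes), and the median was 0.36 residual SDs against B6 and 0.051 against the other consomic strains. Ndufs8, an iron-sulfur subunit of the peripheral arm, had scaled values of 1.78 and 1.05 in B6-mtMSM, against −1.67 and −2.22 in B6 (limma adjusted p = 0.172). Ndufa1, the subunit with the highest mean level, had −0.0012 and 0.09, against −2.35 and 0.24. Over 14 assembly factors of complex I the median was −0.34 against B6 and −0.59 against the other consomic strains, with Ndufaf1 at −0.53 residual SDs against B6.

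The other complexes gave 0 calls as well. Medians against B6 and against the other consomic strains were −0.22 and −0.75 residual SDs over 7 complex II genes, 0.38 and 0.0063 over 15 of complex III, −0.14 and −0.27 over 27 of complex IV and −0.1 and −0.26 over 21 of complex V. At an unadjusted p below 0.05, 0, 0, 1 and 1 members of these were higher and 3, 2, 2 and 3 lower. Atp5g3, a subunit of the membrane ring of ATP synthase and the brightest of its list, had −2.18 and −2.71 in B6-mtMSM, against 0.68 and 1.55 in B6 (limma, −3.56 residual SDs, not called). Uqcrfs1, the Rieske iron-sulfur protein of complex III, lay with both B6-mtMSM males (−2.25 and −2.67) below all 56 other males, against 0.84 and −0.24 in B6, and was not called (limma unadjusted p = 0.00959). Uqcrb, Cox6a1 and Sdhb, the brightest members of their lists, stood at 0.74, −0.18 and 0.48 residual SDs against B6.

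On the lists for building and maintaining mitochondria, which do not hold Gtpbp10, limma called only Fkbp8. Of 75 tested proteins of the mitochondrial ribosome, both B6-mtMSM males lay above both B6 males in 22 and below them in 19, shares of 29.3% and 25.3% beside 26.6% and 22.2% of all tested genes, with 3 higher and 3 lower at an unadjusted p below 0.05. The median of that list was 0.31 residual SDs against B6 and −0.31 against the other consomic strains. Against those strains 61 of the 75 members were negative, where 5942 of the 11949 tested genes were. B6 itself stood at a list median of −0.54 against the same strains. The brightest member, Mrpl39, stood at 1.3 residual SDs against B6. Against B6 the medians were −0.17 over 28 translation factors and tRNA ligases, −0.51 over 35 genes of mtDNA replication, transcription and RNA processing, 0.38 over 31 import genes and −0.94 over 19 chaperones and proteases, with −0.28, −0.14, −0.31 and −0.42 against the other consomic strains. Hspd1, the chaperonin of the matrix, had −0.79 and −1.75 in B6-mtMSM, against 2.05 and 0.23 in B6. The medians over 32 carriers and calcium uptake genes were −0.76 and −0.27, over 24 dynamics and mitophagy genes −0.49 and −0.064, over 33 genes of coenzyme Q, heme and iron-sulfur clusters 0.17 and −0.13, over 13 antioxidants −0.24 and −0.22, and over 15 PGC-1 and respiration regulators 0.21 and 0.32, in the same order. Of these lists' brightest members, Slc25a5, an ADP/ATP carrier, stood at −2.81 residual SDs against B6, Timm23, a channel of protein import, at 1.3, and Gfm1, Fdx1, Gpx1 and Ppara at −0.86, −0.85, −0.68 and −0.91.

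On the metabolic lists centred on mitochondria limma called 0 genes. Over 23 genes of the TCA cycle and pyruvate the median was −0.45 residual SDs against B6 and −0.0015 against the other consomic strains, with 0 higher and 4 lower at an unadjusted p below 0.05. Idh3a, a catalytic subunit of isocitrate dehydrogenase, had −1.58 and −2.94 in B6-mtMSM, against 2.39 and −0.048 in B6 (limma adjusted p = 0.16), and Mdh1, a cytosolic malate dehydrogenase and the brightest of the list, stood at −2.73 residual SDs. The medians were −0.1 and 0.32 over 24 genes of fatty acid oxidation and ketogenesis (Acaa2 at 0.73 residual SDs) and −0.7 and −0.059 over 29 genes of the urea cycle and amino acid catabolism. Cps1, which starts the urea cycle, had −0.52 and −0.94 in B6-mtMSM, against 1.83 and 1.93 in B6 (−2.61 residual SDs, not called). Over 30 genes of the integrated stress response, the programme that often follows mitochondrial dysfunction, the median was 0.048 against B6 and −0.1 against the other consomic strains, with 1 higher and 1 lower at an unadjusted p below 0.05. The NRF2 targets (16 genes, 0.075 and 0.12), the hypoxia response (15 genes, −0.11 and 0.11), heat shock (12 genes, −0.35 and −0.22) and endoplasmic reticulum stress (23 genes, 0.21 and −0.2) also held 0 called genes by limma.

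Genes of cholesterol synthesis were mostly on the low side. Of 20 tested members 2 had a positive difference from B6, where 53.6% of all tested genes did, and both B6-mtMSM males lay below both B6 males in 9 and above them in 1 (22.2% and 26.6% of all tested genes). The median was −1.13 residual SDs against B6 and −0.64 against the other consomic strains, limma called 0, and 3 were lower at an unadjusted p below 0.05. The male medians over the list were 0.24 and −1.5 in B6-mtMSM, against 0.78 and 0.51 in B6, so that B6-mtMSM male 2 carried most of the difference.

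Other lists of liver functions gave 1 call by limma, that of Cp among 27 acute phase genes (median 0.23 residual SDs against B6 and −0.31 against the other consomic strains). In glycolysis and gluconeogenesis both B6-mtMSM males lay below both B6 males in 13 of 22 genes and above them in 4 (22.2% and 26.6% of all tested genes), with medians of −0.76 and −0.14. The same counts, against the same shares, were 10 and 2 of 20 circadian clock genes (medians −0.61 and 0.11) and 8 and 1 of 19 bile acid genes (−0.74 and 0.18). In these 3 lists the median against B6 was thus further from 0 than that against the other consomic strains. Over 21 PPARA targets the medians were −0.17 and 0.24, over 22 genes of fatty acid and triglyceride synthesis −0.19 and 0.23, over 35 xenobiotic genes 0.023 and 0.26 and over 15 proteins of the cytosolic ribosome −0.44 and −0.63.

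Interferon response genes were mostly on the high side, with 0 of 27 called by limma and 9 higher and 0 lower at an unadjusted p below 0.05. In 24 the difference from B6 was positive, where 6404 of the 11949 tested genes were. Both B6-mtMSM males lay above both B6 males in 20 and below them in 0, where 26.6% and 22.2% of all tested genes did so. Irf7, the transcription factor that amplifies the type I interferon response, had scaled values of 1.84 and 2.96 in B6-mtMSM, against −0.81 and −0.85 in B6 (limma adjusted p = 0.196). Xaf1, an interferon-induced gene, had 0.74 and 1.66, against −1.36 and −1.9. Iigp1, an interferon-inducible GTPase and the brightest of the list, had 0.74 and 0.46, against 0.66 and 0.076, and so did not separate the groups. The list median was 1.35 residual SDs against B6 and 0.78 against the other consomic strains, and the male medians were 0.72 and 1.15 in B6-mtMSM, against −0.55 and −0.56 in B6. The B6-mtMSM males were ranks 54 and 57 of 60 from the bottom, and males of B6-Chr2CMSM (1.31), B6-ChrXCMSM (1.75) and B6-Chr7TMSM (1.87) ranked higher. Quantile normalization gave a list median of 1.996, below the 2.16 of all tested genes.

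Among markers of blood cells, all 6 tested lymphocyte markers had a positive difference from B6. Their median was 1.59 residual SDs against B6 and 1.004 against the other consomic strains. Both B6-mtMSM males lay above both B6 males in 4 of them (26.6% of all tested genes). The T cell receptor chain Cd3e had 0.91 and 2.32 in B6-mtMSM, against −1.1 and 0.27 in B6. In Ighm, the brightest of the list, the groups overlapped, with 0.59 and 1.48 against 0.55 and 1.16 in B6 (0.18 residual SDs). The 3 neutrophil markers had a median of 2.1, with Elane at 2.1 and Ngp at 1.12 beside the called Cxcr2; in Ngp the groups overlapped. The 3 tested erythroid markers had a median of −0.42 against B6 and −0.2 against the other consomic strains. Of 16 listed lymphocyte markers 13 were on the array and 6 were tested, and of 9 neutrophil markers 8 were on the array and 3 were tested. Their part in the interferon result was not tested.

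**Figure D5:**
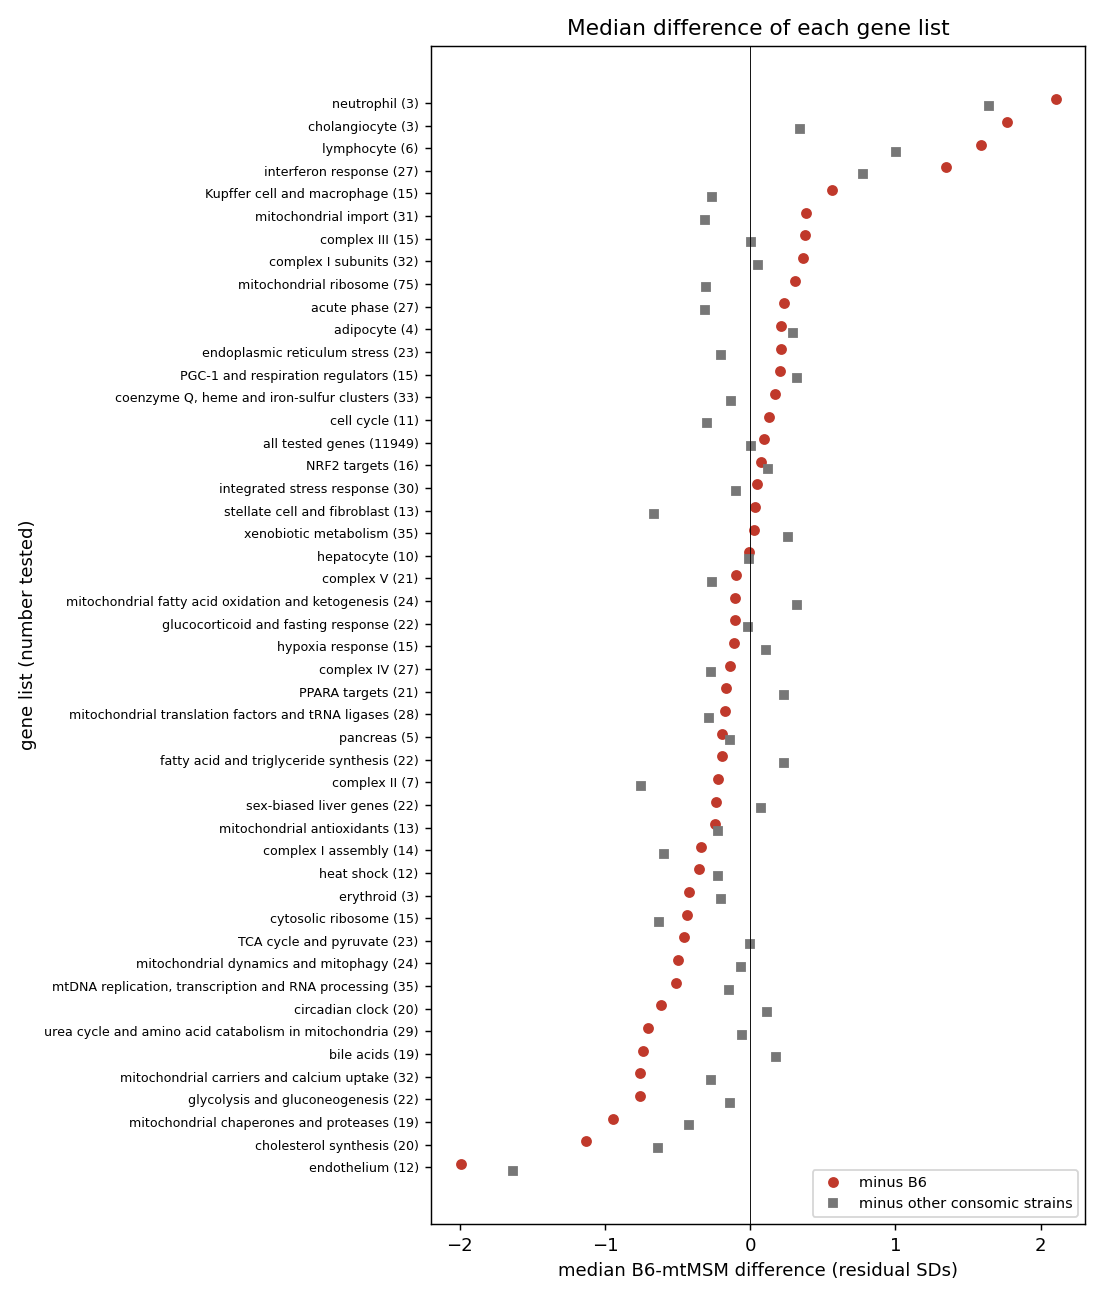
Median difference of B6-mtMSM from B6 (red circles) and from the other consomic strains (grey squares) over the tested genes of each list, in residual SDs (horizontal axis), lists with at least 3 tested genes and all tested genes (vertical axis, number tested in brackets). The endothelial markers lie lowest at −1.99 and the neutrophil, cholangiocyte, lymphocyte and interferon lists highest; under quantile normalization the endothelial median turns to 0.467 and that of all tested genes to 2.16.

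Finally, genes were counted in which both B6-mtMSM males lay outside all 56 males of B6 and the other consomic strains, which needs no estimate of variance. There were 15 above (0.126%) and 36 below (0.301%). Outside the chromosome a strain carries from MSM, the same count was 50 in B6-mtMSM without ND5, against 2 to 58 in the other 27 consomic strains, with a median of 9, and 1 strain had more. The widest gap belonged to ND5, at 3.9 residual SDs, followed by Oit3 (3.24), Ptprb (2.1), Pigz (1.7), Cxcr2 (1.58) and Cntd1 (1.19). Then came Elk3 (1.12), Gtpbp10 (1.03), Cyp4b1 (0.95), Clec14a (0.95), Samd4b (0.94) and Mgst2 (0.87), a microsomal glutathione transferase. Of the 30 genes called against B6, 15 were among these. After quantile normalization 0 genes lay above and 1 below all other males.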

How the data were processed

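Liver RNA of 60 males was hybridised to 120 arrays, and the deposited log2 values of 45037 probe sets were used as the authors gave them. Their normalization, summary method and genome build: not given in the sources used here. The values were taken as log2 from their range; the base is not stated. The array medians lay between 7.416 and 7.417. The number of males, 2 per strain, limits the precision. Arrays with the same animal number in the title were read as 1 male and averaged, which gave 2 males per strain. That this number stands for the male is not stated outright by the labels.

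Of the probe sets, 34945 had 1 gene symbol, 932 several and 9160 none. Each gene was represented by its brightest probe set on average (18193 genes) and tested if at least 2 males exceeded the median of all values, 7.417 (11949 genes). Limma 3.58.1 (R 4.3.3) fitted 1 mean per strain over all males (30 residual and 0.592 prior degrees of freedom). The contrasts were B6-mtMSM minus B6 and B6-mtMSM minus the mean of 24 to 27 other consomic strains, leaving out those with the gene's own MSM chromosome. P-values were adjusted within each contrast. The residual SD is that of the same fit. The pipeline was tested on simulated data.

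Named were the ND5 probe set, genes called in the same direction against both references and the 12 widest gaps outside all 56 other B6-background males. Up to 4 called members of a list, or its brightest one, were named as well. Some lists were described without naming their brightest member. Genes and lists were chosen with earlier results of these data known. Further genes were named as examples after their values were seen. Alternatives were another scaling, filter, choice of probe set, array, variance model and reference, and each male left out.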

Additional observations from a re-analysis of the deposited data

Results flagged for a closer look

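Of the 10092 probe sets without a single gene name, which entered no comparison above, 27 had both B6-mtMSM males above all 56 other males on the B6 background (0.268%) and 4 had both below them (0.0396%). Among the tested genes these shares were 0.126% and 0.301%. The tested genes had passed the filter on dim probe sets and these probe sets had not, so the shares are not of like sets.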

How the results depend on the processing

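The values below are genes called higher and lower. Removing each array's shift gave 17 and 14 against B6, and that alternative, the stricter filter, the robust variance model and both other forms of the second reference left each count within 1.5 times. Quantile normalization left 1 and 1 against B6, 0 and 1 against the other consomic strains and 0 and 0 against both, with 1 list member called. At an unadjusted p below 0.05, 875 and 72 genes were then higher and lower than in B6. The deposited values of ND5 span 0.00126 over all arrays, less than its distance of 0.00398 to the next probe set, so it holds rank 53 on every array and quantile normalization set its difference to 0 (adjusted p = 1). It also turned Adgrf5 to 0.000764, Adgrl4 to 0.000332, Babam2 to 0.000598, Crbn to 7.97e-05, Gtpbp10 to 0.000467, Msl3 to 0.000228 and Oit3 to 4.36e-05 (log2, minus B6), none called, and shifted the median gene by 2.16 residual SDs. It gave 0 genes above and 1 below all other males, 3 endothelial markers below B6 and an endothelial median of 0.467. Without a filter there were 10 and 9 calls against B6, 17 higher against the other consomic strains and 3 list members. Testing every probe set gave 28 lower against B6, 35 lower against the other consomic strains and 21 lower against both. A fit on the compared groups alone called 0 and 0 against B6 (794 and 711 at an unadjusted p below 0.05), 0 and 0 against both and 0 list members, with ND5 at 0.000834 (adjusted p = 0.317). All arrays with male as a random block gave 10 higher against B6, and 14 higher and 26 lower against the other consomic strains. The first array of each male gave 0 and 0 against B6 (353 and 204 unadjusted), 0 and 0 against the other consomic strains (256 and 285 unadjusted), 0 and 0 against both and 0 list members, with ND5 at 0.000892 (adjusted p = 0.327), 14 genes below all other males, 5 endothelial markers below B6 and an endothelial median of −1.21.

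With a male left out, the calls were 0 to 2 higher and 1 to 4 lower against B6, 1 to 7 and 2 to 15 against the other consomic strains, 0 to 2 and 1 to 4 against both, and 1 to 2 list members. ND5 ran from 0.000679 to 0.000989. Endothelial markers below B6 numbered 10 to 11 (median −2.23 to −2.05) and interferon genes above B6 21 to 23 (median 1.05 to 1.56). With 1 B6-mtMSM male, 151 to 206 genes lay above and 134 to 205 below all other males, since 1 male alone passes more easily than 2. The alternatives for these lists and for the genes outside all other males were chosen after seeing the data. No paired analysis was possible because the animal numbers are not shared between strains. For ND5 under quantile normalization its fixed rank accounts for the change; for the other changes the cause was not tested.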

Other observations

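Over all 45037 probe sets, 23 had the 4 males with MSM mtDNA, those of B6-mtMSM and of MSM, above the 56 other males, and 9 had them below. The MSM males differ from the 56 in the whole nuclear genome as well. Of these, 8 and 1 had no single gene name, and 8 and 3 belonged to tested genes. Beside ND5, Cxcr2, Pigz and Plxnb3, the tested genes above were Gon4l, Tsks, Thop1 and Zfp618, and those below were Elk3, Golph3l and Lims1. Differences of B6-mtMSM and of MSM from the other consomic strains stood at 2.42 and 2.23 residual SDs for Thop1, a metallopeptidase that degrades short peptides, and at −2.79 and −3.76 for Lims1, an adaptor of integrin adhesions. Probe sets outside the tests included a second one of the endothelial receptor Adgrl4 (−4.32 and −2.81), one of Myct1 (−2.96 and −2.61), and one of the metalloreductase Steap4 (−1.47 and −1.59).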
